A study of Mus musculus with 6 samples.

Results

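Described here are genes of mouse chromosome 13 in bone marrow leukaemia cells that overexpress N-myc. The list holds 42 gene symbols spread over the chromosome, and 40 of them were measured among the 18193 genes of the arrays. A listed gene was taken where a probe set is annotated to exactly that symbol, and among several such probe sets the one with the highest 6-array mean stands for the gene. Taf9, a subunit of the transcription factor TFIID, is matched only by 3 probe sets that carry several symbols, and Ripk1, a kinase of tumour necrosis factor (TNF) receptor signalling, by none in the annotation used here. The expression of neither is analysed here. Of the 40, 36 had a mean at or above the median level of all genes, and Tert, Nfil3, Pde4d and Parp8 lay below it. No filter on level was applied to the 40. The genes were chosen from the measured values, namely how far the genes of this chromosome deviate on each array, so their values by array are a description and carry no test.

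The study set 3 Cdh1-deficient against 3 Cdh1-intact mice, all on a C57BL/6 background, with 1 Affymetrix array per mouse. Donors of both groups were homozygous for a conditional gene-trap allele of Cdh1 that carries a floxed cDNA, and Cdh1-deficient donors also carried Mx1-Cre, an interferon-inducible recombinase that acts in marrow and in other tissues. The donors of both groups came from the same litters and received pIpC, the inducer of Mx1-Cre, at 7 to 8 weeks of age. Donor marrow was taken 4 weeks after the last dose and 2 days after 150 mg/kg 5-fluorouracil. The N-myc cDNA was carried by the retroviral vector pMXs-IG, and the RNA came from GFP-positive marrow mononuclear cells sorted from moribund mice. All values are log2 levels as the authors deposited them, and every difference is Cdh1-deficient minus Cdh1-intact.

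A chromosome that is gained or lost as a whole changes the copy number of all its genes at once, and the transcripts of many of them usually shift in the same direction by a modest amount. Such changes are frequent in leukaemia, and the Cdh1 of this study, encoded by Fzr1, activates the anaphase-promoting complex, a ubiquitin ligase that helps to order chromosome segregation. DNA copy number was not measured in the data used here, so the values below are transcript levels only. In sorted bulk cells, fewer cells of a type and less RNA per cell cannot be told apart.

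The labels call the cells of every array B-cell leukaemia, and the markers of 1 array went against that cell type; they do not bear on its genotype. On Cdh1-intact array 2 the mean of the 6 measured B-cell markers (of 7 listed) was 4.53, whereas the other arrays lay between 8.38 and 9.29. Its mean of the 6 measured T and NK cell markers (of 7) was 11.22, whereas the others lay between 5.47 and 7.84. The 7.84 was on Cdh1-intact array 3, and the next highest, on Cdh1-intact array 1, was 5.92. On Cdh1-intact array 3, Cd3d read 8.69, Cd3g 7.95 and Gzma, which lies on chromosome 13, 8.33. Its Cd3e, Cd2 and Nkg7 read 6.48, 10.10 and 5.50, and its B-cell mean of 9.29 was the highest. Across genes, which are not independent replicates, the Pearson r of Cdh1-intact array 2 with another array was between 0.933 and 0.945, and that of any other pair between 0.979 and 0.993. Of the 13 listed genes with a range above 1, 11 had their highest or lowest value on it. All 7 neutrophil markers had their highest value on Cdh1-deficient array 2. The neutrophil mean was 9.29, 11.47 and 10.07 on Cdh1-deficient arrays 1, 2 and 3, and 10.05, 6.18 and 9.06 on Cdh1-intact arrays 1, 2 and 3.

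Most listed genes lay below their own means on Cdh1-deficient array 2, in every role group. The median deviation of the 40 listed genes from their 6-array means was 0.12, -0.23 and 0.06 on Cdh1-deficient arrays 1, 2 and 3, and -0.05, 0.00 and 0.20 on Cdh1-intact arrays 1, 2 and 3. Genes of the other autosomes with a mean at or above the median level (n = 8486) had medians of 0.04, 0.03 and 0.07 on the Cdh1-deficient arrays and -0.08, -0.05 and 0.03 on the Cdh1-intact arrays. Cdh1-deficient array 2 was thus the low one and Cdh1-intact array 3 the high one. On Cdh1-deficient array 2, 29 of the 40 genes lay below their own mean and 13 had their lowest value of all 6 arrays, where 17.5% of all genes tested had theirs. Since these deviations chose the genes, nothing is read from that comparison. Against the mean of Cdh1-deficient arrays 1 and 3 the median ratio on array 2 was 0.804 for the listed genes, on the linear scale, and 0.984 for the genes of the other autosomes.

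**Figure D1:**
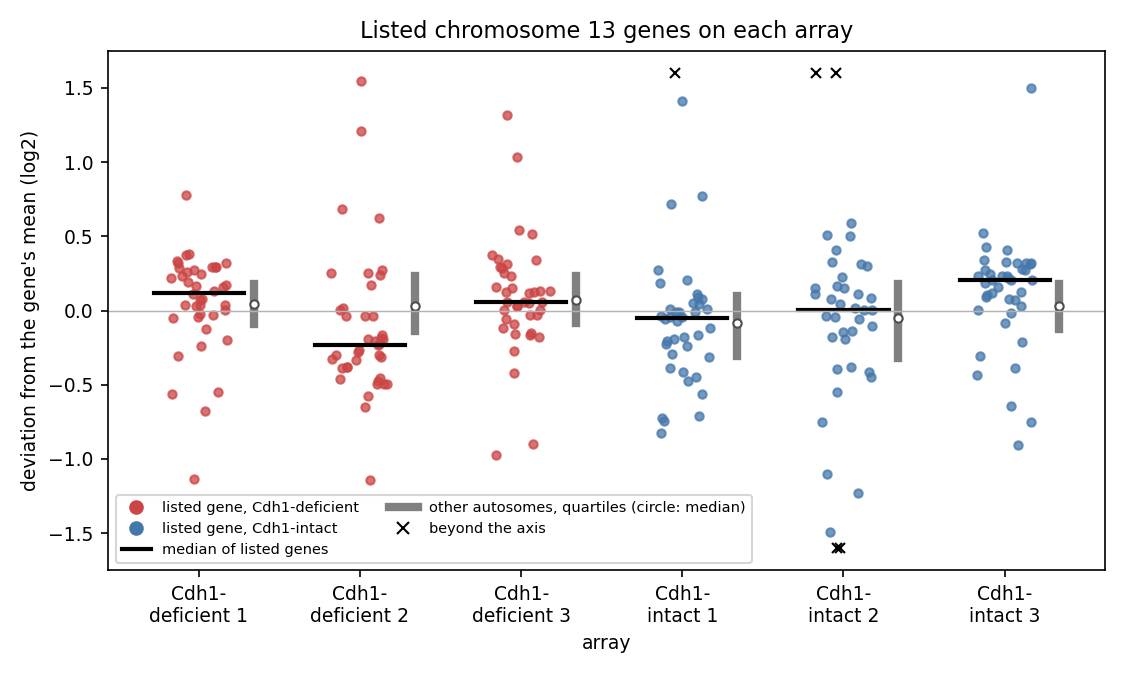
Deviation of each of the 40 listed genes from its 6-array mean (log2, vertical axis) on each array (horizontal axis). Black bars are the medians of the listed genes, grey bars the quartiles of the other autosomes with their median as a circle, and crosses stand for values beyond the axis. On Cdh1-deficient array 2 the median of the listed genes lies at -0.23, below that of the other autosomes at 0.03.

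The promoters of 3 genes that were lowest on that array are shown for orientation only. Cdk7 encodes a kinase that activates other cyclin-dependent kinases, Cks2 a small protein that binds them, and Ndufs4 a subunit of respiratory complex I. The 250 bases before the first start listed by RefSeq are printed 5′ to 3′ (assembly GRCm38.p6), at chr13:100730943-100731192 on the minus strand for Cdk7, chr13:51644982-51645231 on the plus strand for Cks2 and chr13:114388095-114388344 on the minus strand for Ndufs4. Capitals mark the E-box CACGTG, which MYC family proteins bind, the GC box GGGCGG and the CCAAT box, read on both strands.
Cdk7: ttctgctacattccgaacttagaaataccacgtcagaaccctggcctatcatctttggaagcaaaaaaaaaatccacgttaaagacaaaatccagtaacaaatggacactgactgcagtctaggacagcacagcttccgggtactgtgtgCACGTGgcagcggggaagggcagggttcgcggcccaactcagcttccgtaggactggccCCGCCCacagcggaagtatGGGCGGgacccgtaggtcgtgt
Cks2: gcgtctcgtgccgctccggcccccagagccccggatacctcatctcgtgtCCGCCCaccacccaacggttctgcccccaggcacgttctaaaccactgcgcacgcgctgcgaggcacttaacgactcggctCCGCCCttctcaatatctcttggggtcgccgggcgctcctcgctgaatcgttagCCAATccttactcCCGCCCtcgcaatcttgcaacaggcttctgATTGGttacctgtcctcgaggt
Ndufs4: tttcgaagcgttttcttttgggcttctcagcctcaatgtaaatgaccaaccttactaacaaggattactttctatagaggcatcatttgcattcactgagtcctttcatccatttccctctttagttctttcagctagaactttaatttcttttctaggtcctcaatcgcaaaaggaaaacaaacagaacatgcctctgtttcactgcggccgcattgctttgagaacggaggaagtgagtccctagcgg

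The E-box stood in the promoter window (250 bases before to 50 after the start) of 2 of the 39 listed genes that have one in the RefSeq table (Taf9 and Ripk1 among the 39), Cdk7 and Gadd45g, and in 7.24% of all 27025 promoters. The GC box stood in 26 of the 39, Taf9 and Ripk1 included (66.7%, against 35.9% of all promoters), and the CCAAT box in 18 (46.2%, against 37.9%). TTTGAA, the core of the cell cycle CHR element, stood in 2 of the 39 (5.13%, against 18.1%), Dek and Pde4d. These letter matches describe the windows only.

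Cell cycle and mitosis genes were low on Cdh1-deficient array 2, and most also on Cdh1-intact array 1. Of 8, 7 lay below their own mean on Cdh1-deficient array 2 and 4 had their lowest value, beside 3 of 6 genes of RNA, translation and nuclear transport. On Cdh1-intact array 1, 7 of the 8 lay below their own mean and 3 had their lowest value. Of the genes of the other autosomes at or above the median level, 61.9% and 29.1% did so on that array. Cdk7 read 9.86, 9.10 and 9.71 on Cdh1-deficient arrays 1, 2 and 3, and 9.40, 9.58 and 9.81 on Cdh1-intact arrays 1, 2 and 3. Its cyclin partner Ccnh read 11.42, 10.88 and 11.51 on the Cdh1-deficient arrays, against 11.23, 11.97 and 11.73 on the Cdh1-intact arrays. Cks2 read 12.43, 11.79 and 12.38 on the Cdh1-deficient arrays, against 12.23, 12.05 and 12.56 on the Cdh1-intact arrays. For all 3 genes Cdh1-deficient array 2 was the lowest of the 6, and the groups overlapped because Cdh1-deficient arrays 1 and 3 lay above the lowest Cdh1-intact value. The Ccnh difference of -0.37 (SE 0.25) was -0.18 without Cdh1-deficient array 2, -0.21 without Cdh1-intact array 2 and -0.58 when Cdh1-intact array 1 was left out. Cdk7, Cks2, Cenph and the other genes below with no place in the rule for named genes were picked after their values were seen.

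Trip13, an ATPase that disassembles mitotic checkpoint complexes, read 10.68, 10.36 and 10.77 on the Cdh1-deficient arrays, against 10.60, 10.72 and 10.72 on the Cdh1-intact arrays. The 5 other arrays lay close together here, and Cdh1-deficient array 2 minus the lowest of them was -0.24. Cenph, a subunit of the inner kinetochore, read 8.33, 7.66 and 8.28 on the Cdh1-deficient arrays, against 7.43, 8.66 and 8.59 on the Cdh1-intact arrays. Cdh1-intact array 1 was lower still for Cenph, as it was for Depdc1b and for the kinesin gene Kif2a, which depolymerizes microtubules. Depdc1b read 8.33, 7.70 and 8.37 on the Cdh1-deficient arrays, against 7.47, 7.98 and 8.35 on the Cdh1-intact arrays, a difference of 0.20. Kif2a read 9.13, 9.06 and 9.31 on the Cdh1-deficient arrays, against 8.87, 9.66 and 9.48 on the Cdh1-intact arrays, a difference of -0.17 that was -0.01 without Cdh1-intact array 2 and -0.41 when Cdh1-intact array 1 was left out. Cdc14b, a phosphatase that in human cells helps to switch on the Cdh1 form of the anaphase-promoting complex after DNA damage, went the other way. It read 7.46, 7.88 and 8.52 on the Cdh1-deficient arrays, against 7.24, 4.57 and 7.53 on the Cdh1-intact arrays. Its difference of 1.51 rested largely on Cdh1-intact array 2 and was 0.57 without that array.

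Of the 6 measured genes of transcription and chromatin, 4 lay below their own mean on Cdh1-deficient array 2. Brd9, a bromodomain protein of the non-canonical BAF chromatin remodeller, was the only listed gene whose groups did not overlap. It read 8.74, 8.39 and 8.61 on the Cdh1-deficient arrays, against 9.04, 8.89 and 8.96 on the Cdh1-intact arrays, a difference of -0.38 (SE 0.13) with an adjusted p of 0.849 in limma, short of the threshold. In gene order Brd9 is the neighbour of Trip13. The difference ranged from -0.46 to -0.29 when single arrays were left out. Dek, a chromatin protein, was nearly level, at 12.41, 12.37 and 12.42 on the Cdh1-deficient arrays and 12.21, 12.42 and 12.61 on the Cdh1-intact arrays. Jarid2, a cofactor of Polycomb repressive complex 2, read 9.26, 9.52 and 9.53 on the Cdh1-deficient arrays, against 9.55, 10.15 and 9.35 on the Cdh1-intact arrays, and was not low on Cdh1-deficient array 2.

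Mef2c and Nfil3 were set by single arrays. Mef2c, a transcription factor of the B lineage among others, read 9.15, 8.63 and 9.41 on the Cdh1-deficient arrays, against 9.79, 3.39 and 9.87 on the Cdh1-intact arrays. Its difference of 1.38 turned to -0.77 without Cdh1-intact array 2. Nfil3, a basic leucine zipper repressor, read 4.02, 6.12 and 4.58 on the Cdh1-deficient arrays, against 4.76, 4.03 and 3.93 on the Cdh1-intact arrays, so that Cdh1-deficient array 2 was its highest value. Its difference of 0.67 was 0.06 without that array. For Ssbp2, a single-stranded DNA-binding cofactor, Cdh1-deficient array 2 minus the median of the other 5 arrays was -0.67, and the lowest value was on Cdh1-intact array 1.

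**Figure D2:**
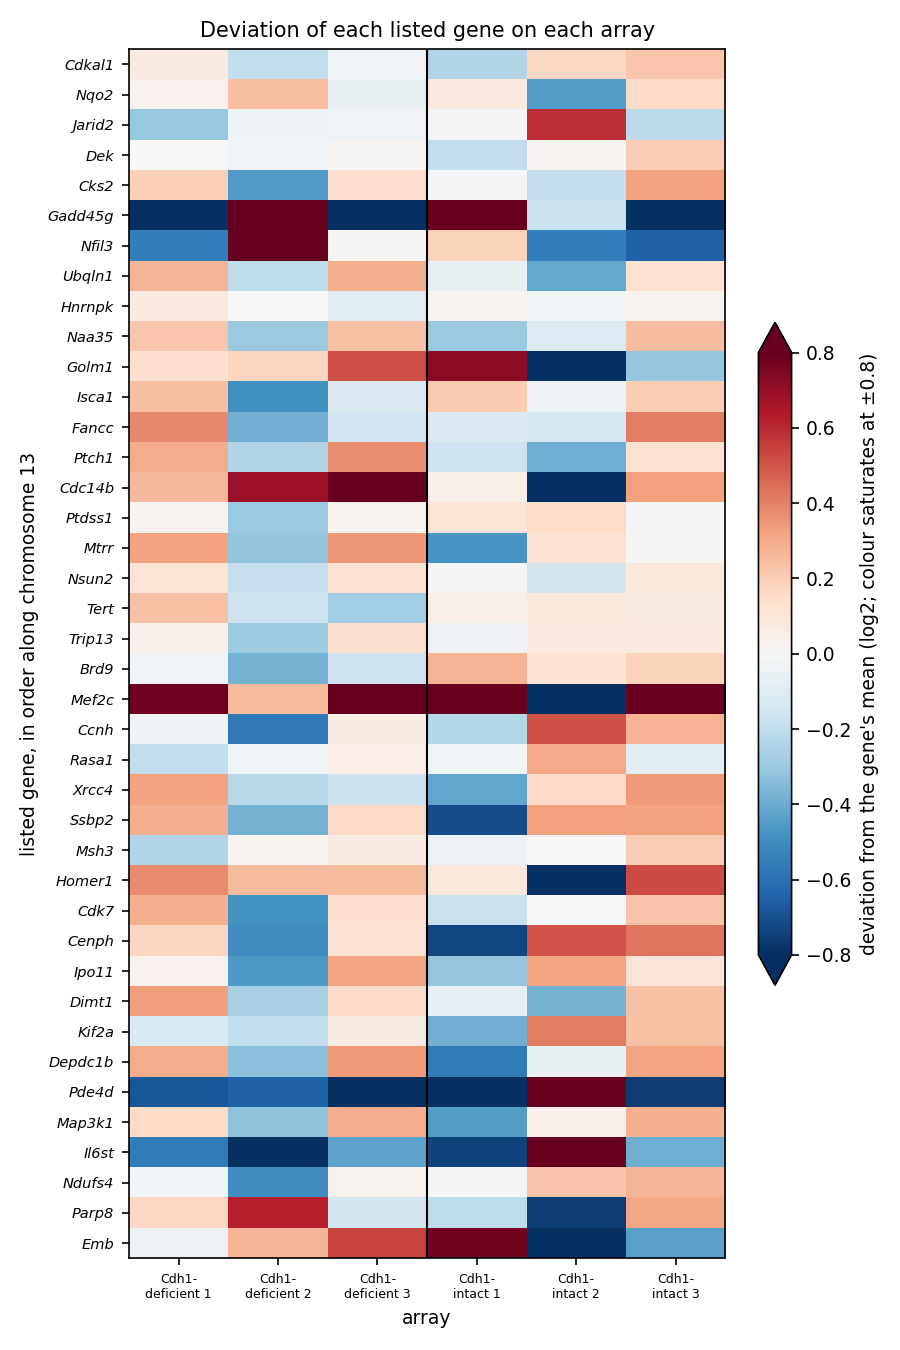
Deviation of each listed gene from its 6-array mean (log2, colour) on each array (columns), with the 40 genes in their order along chromosome 13 (rows). Blue cells fill most of the column of Cdh1-deficient array 2, where 29 of 40 genes are below their mean. Colours saturate at 0.8, and the column of Cdh1-intact array 2 is saturated for Mef2c, Il6st, Pde4d and Cdc14b, among others.

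Among the DNA repair and telomere genes, 3 of 5 lay below their own mean on Cdh1-deficient array 2 and the median difference between the groups was -0.11, with none of the 5 higher in Cdh1-deficient cells. Over all 18193 genes, 8936 were lower in Cdh1-deficient cells. Fancc, a core protein of the Fanconi anaemia pathway, read 7.05, 6.28 and 6.51 on the Cdh1-deficient arrays, against 6.55, 6.53 and 7.07 on the Cdh1-intact arrays. Its difference of -0.10 (SE 0.25, limma adjusted p = 0.945) turned to 0.06 without Cdh1-deficient array 2, to 0.07 without Cdh1-intact array 3 and to 0.04 with the mean of its probe sets. Xrcc4, the ligase IV partner that joins DNA ends, including those made in antigen receptor rearrangement, read 6.87, 6.33 and 6.38 on the Cdh1-deficient arrays, against 6.14, 6.71 and 6.89 on the Cdh1-intact arrays. Fancc and Xrcc4 were both highest on Cdh1-intact array 3, and only Fancc was lowest on Cdh1-deficient array 2. The Xrcc4 difference of -0.05 turned to 0.05 without Cdh1-deficient array 2 and to 0.10 without Cdh1-intact array 3. It turned to 0.02 without Cdh1-deficient array 3 and to 0.01 without Cdh1-intact array 2. Tert, the catalytic subunit of telomerase, read 5.08, 4.68 and 4.57 on the Cdh1-deficient arrays, against 4.89, 4.93 and 4.92 on the Cdh1-intact arrays. The mismatch repair gene Msh3 read 8.27, 8.53 and 8.57 on the Cdh1-deficient arrays, against 8.47, 8.52 and 8.71 on the Cdh1-intact arrays, and for neither was Cdh1-deficient array 2 the lowest. Gadd45g, a stress-induced gene, read 5.36, 7.70 and 5.52 on the Cdh1-deficient arrays, against 8.47, 6.32 and 5.59 on the Cdh1-intact arrays. It was high on the array where most of the chromosome was low, and its difference of -0.60 turned to 0.24 without Cdh1-intact array 1.

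Of the 6 genes of RNA, translation and nuclear transport, 5 lay below their own mean on Cdh1-deficient array 2 and 3 had their lowest value there. Naa35, a subunit of an amino-terminal acetyltransferase, read 9.51, 8.99 and 9.52 on the Cdh1-deficient arrays, against 8.99, 9.18 and 9.53 on the Cdh1-intact arrays. It is 1 of those 3 by a near tie, since Cdh1-deficient array 2 minus the lowest of the other 5 arrays was -0.003. The nuclear import receptor gene Ipo11 read 9.10, 8.61 and 9.38 on the Cdh1-deficient arrays, against 8.75, 9.38 and 9.17 on the Cdh1-intact arrays. Nsun2, an RNA cytosine methyltransferase, read 11.995, 11.70 and 12.01 on the Cdh1-deficient arrays, against 11.89, 11.74 and 11.98 on the Cdh1-intact arrays, a narrow range with Cdh1-deficient array 2 just lowest. The rRNA methyltransferase gene Dimt1 read 9.45, 8.86 and 9.28 on the Cdh1-deficient arrays, against 9.05, 8.74 and 9.35 on the Cdh1-intact arrays. The tRNA-modifying gene Cdkal1 read 7.15, 6.88 and 7.04 on the Cdh1-deficient arrays, against 6.84, 7.24 and 7.30 on the Cdh1-intact arrays. For both, Cdh1-deficient array 2 was the lowest of its own group and a Cdh1-intact array was lower still. Hnrnpk, an abundant RNA-binding protein, was level, from 12.60 to 12.77 over all arrays. For Ipo11 the difference of -0.07 (SE 0.25) turned to 0.14 without Cdh1-deficient array 2 and to 0.07 without Cdh1-intact array 2, and it was -0.77 with the mean of its probe sets, which therefore disagreed.

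Of the 6 measured signalling genes, 5 lay below their own mean on Cdh1-deficient array 2, but the widest ranges in this group came from Cdh1-intact array 2. Il6st, the shared receptor subunit gp130 of interleukin-6 family cytokines, read 6.27, 5.68 and 6.41 on the Cdh1-deficient arrays, against 6.09, 10.08 and 6.44 on the Cdh1-intact arrays. Pde4d, a cyclic AMP phosphodiesterase, read 3.89, 3.92 and 3.67 on the Cdh1-deficient arrays, against 3.75, 8.37 and 3.81 on the Cdh1-intact arrays. Both were high on Cdh1-intact array 2 alone, and their differences of -1.42 and -1.48 were -0.14 and 0.05 without it. Homer1, a scaffold protein, read 6.91, 6.78 and 6.78 on the Cdh1-deficient arrays, against 6.62, 5.04 and 7.05 on the Cdh1-intact arrays, where array 2 was the low one.

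The remaining signalling genes varied less. Map3k1, a kinase of stress-activated signalling, read 8.34, 7.85 and 8.47 on the Cdh1-deficient arrays, against 7.73, 8.22 and 8.46 on the Cdh1-intact arrays. Ptch1, the Hedgehog receptor, read 9.95, 9.41 and 10.02 on the Cdh1-deficient arrays, against 9.48, 9.26 and 9.77 on the Cdh1-intact arrays. Its difference of 0.29 (SE 0.22, limma adjusted p = 0.849) turned to -0.14 when its probe sets were averaged. The Ras GTPase-activating gene Rasa1 lay at 9.14 on Cdh1-deficient array 2, close to its mean, but its other probe sets deviated by -0.68 and -0.36 on that array.

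Of the 9 metabolic, mitochondrial and membrane genes, 5 lay below their own mean on Cdh1-deficient array 2 and 3 had their lowest value there. Isca1, an iron-sulphur cluster assembly factor, read 9.75, 9.02 and 9.39 on the Cdh1-deficient arrays, against 9.72, 9.47 and 9.71 on the Cdh1-intact arrays. Ndufs4 read 10.32, 9.84 and 10.37 on the Cdh1-deficient arrays, against 10.33, 10.57 and 10.61 on the Cdh1-intact arrays, a difference of -0.33 (SE 0.18) that was -0.16 without Cdh1-deficient array 2. The phosphatidylserine synthase gene Ptdss1 read 8.94, 8.61 and 8.94 on the Cdh1-deficient arrays, against 9.02, 9.06 and 8.90 on the Cdh1-intact arrays. In all 3, Cdh1-deficient array 2 was the lowest of the 6. That array minus the median of the other 5 was -0.43 for Mtrr, which keeps methionine synthase active, and -0.33 for the proteasome shuttle gene Ubqln1.

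The other 4 genes of that group were not low on Cdh1-deficient array 2. Golm1, a Golgi membrane protein, read 7.90, 7.93 and 8.28 on the Cdh1-deficient arrays, against 8.48, 6.53 and 7.46 on the Cdh1-intact arrays. Emb, a membrane chaperone of monocarboxylate transporters, lay at 10.18 on Cdh1-deficient array 2, and both genes were lowest on Cdh1-intact array 2. The ADP-ribosyltransferase gene Parp8 read 4.89, 5.34 and 4.57 on the Cdh1-deficient arrays, against 4.52, 3.97 and 5.03 on the Cdh1-intact arrays. Parp8 was thus highest on Cdh1-deficient array 2, as was the quinone reductase gene Nqo2, at 7.13. The differences of Golm1 (0.55, SE 0.48), Emb (0.51, SE 0.48) and Parp8 (0.43, SE 0.32) did not pass the test, and without Cdh1-intact array 2 they were 0.07 for Golm1, 0.09 for Emb and 0.16 for Parp8. Without Cdh1-deficient array 2 that of Parp8 was 0.22.

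Between the groups no listed gene passed. With limma, 0 of 40 had an adjusted p under 0.05, where 0.00% of all 18193 genes had one, and none of the 40 went below 0.849. Before adjustment 1 of 40, Brd9, had a p under 0.05, where 5.50% of all genes did, and groups did not overlap for 1 of 40, where 11.7% of all genes were counted. Of the 40, 17 were higher and 23 lower in Cdh1-deficient cells, with a median difference of -0.05 beside 0.00 over all genes and 0.09 over genes of the other autosomes at or above the median level. The sign of that median depended on single arrays. Without Cdh1-deficient array 2 it was 0.06, with 24 higher and 16 lower, and leaving out Cdh1-intact array 3 gave 0.07. Leaving out Cdh1-intact array 2 gave -0.01. By the same measure, Fzr1 read 8.10, 7.73 and 8.22 on the Cdh1-deficient arrays, against 8.92, 8.04 and 8.92 on the Cdh1-intact arrays, with overlap at Cdh1-intact array 2. The position of its probes relative to the gene trap is unknown here, so those levels check no genotype.

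The rest of chromosome 13 was low on the same array. The chromosome was itself chosen by such deviations. Its other genes, its place among the chromosomes and its blocks are therefore a description too and carry no test. Over the other 298 genes of the chromosome at or above the median level, the median deviation was 0.07, -0.25 and 0.12 on Cdh1-deficient arrays 1, 2 and 3, and -0.04, -0.02 and 0.17 on Cdh1-intact arrays 1, 2 and 3. On Cdh1-deficient array 2, 240 of the 298 (80.5%) lay below their own mean and 128 (43.0%) had their lowest value, against 44.8% and 13.3% of the genes of the other autosomes. The median ratio of that array to the mean of Cdh1-deficient arrays 1 and 3 was 0.784 for these genes, close to the 0.804 of the listed genes.

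Chromosome 13 had the lowest median of the 19 autosomes and the X on Cdh1-deficient array 2. It stood at -0.25, and the next lowest, chromosome 7, at -0.03. On Cdh1-intact array 3 it had the highest median of these 20 chromosomes, 0.17, and the next highest, the X, stood at 0.09. Medians far from 0 were not particular to chromosome 13. Chromosome 19 stood at -0.42 on Cdh1-intact array 3, and chromosome 3 at 0.23 on Cdh1-deficient array 2. On Cdh1-deficient array 3, chromosomes 4, 12 and 5 stood at 0.29, 0.25 and 0.23. On the other 4 arrays the median of chromosome 13 lay within the range of the rest.

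**Figure D3:**
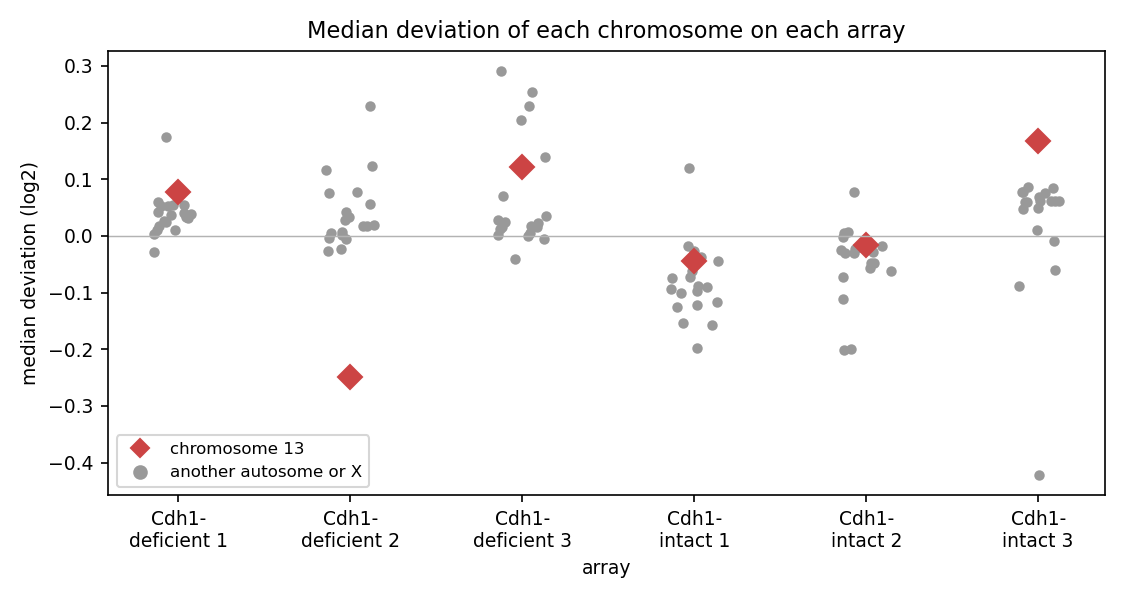
Median deviation (log2, vertical axis) of the genes of each autosome and the X at or above the median level, on each array (horizontal axis). The red diamond is chromosome 13 and each grey point another chromosome. Chromosome 13 is apart from all others at -0.25 on Cdh1-deficient array 2 and is the highest at 0.17 on Cdh1-intact array 3.

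The low values ran along the whole measured chromosome. In gene order, the 334 genes at or above the median level were divided into 12 blocks of 27 or 28 genes. The block medians of Cdh1-deficient array 2 ranged from -0.35 to -0.13, and all 12 were below 0. On Cdh1-deficient array 1 they ranged from -0.05 to 0.18 and on Cdh1-deficient array 3 from 0.05 to 0.21. On the Cdh1-intact arrays they ranged from -0.10 to 0.04, from -0.08 to 0.15 and, on array 3, from 0.11 to 0.28, all 12 above 0. The first 2 blocks, at one end of the chromosome, hold no listed gene, and they stood at -0.27 and -0.13 on Cdh1-deficient array 2.

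**Figure D4:**
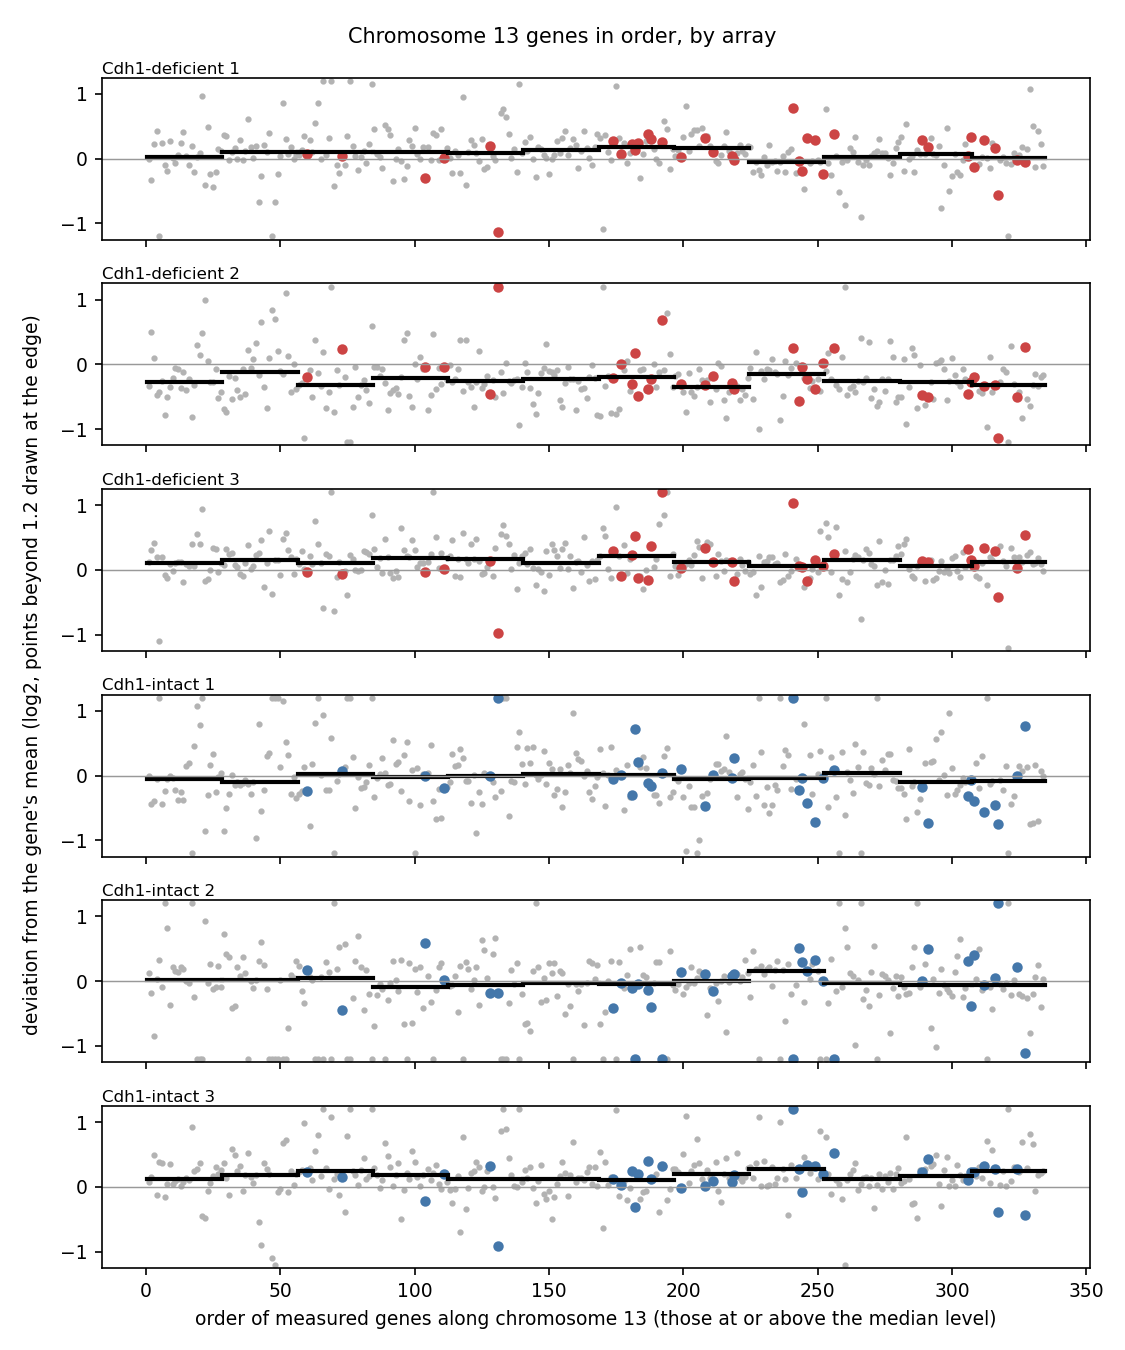
Deviation from the gene's 6-array mean (log2, vertical axis) of the 334 chromosome 13 genes at or above the median level, in gene order (horizontal axis), with 1 panel per array. Coloured points are listed genes, grey points the others, and black bars the medians of 12 blocks. On Cdh1-deficient array 2 all block medians lie between -0.35 and -0.13.

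The size of the shift depended on the level of the gene. Genes were divided by their mean level, with no filter, into 3 classes of equal size. In the class with the highest levels, 232 chromosome 13 genes had a median deviation of -0.28 on Cdh1-deficient array 2, against 0.03 for 5638 genes of the other autosomes. In the middle class the medians were -0.12 for chromosome 13 and -0.01 for the other autosomes, and in the class with the lowest levels both were -0.04. Of the 40 listed genes, 28 lay in the highest class, 9 in the middle and 3 in the lowest.

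Further probe sets of the listed genes, which the choice of probe set left out, were also lowest on Cdh1-deficient array 2 in the median. The listed genes had 69 further single-symbol probe sets, 48 of them, for 27 genes, at or above the median level of all probe sets. Those 48 had a median deviation of 0.14, -0.23 and 0.07 on Cdh1-deficient arrays 1, 2 and 3, and -0.01, -0.06 and 0.26 on Cdh1-intact arrays 1, 2 and 3. On Cdh1-deficient array 2, 38 of the 48 lay below their own mean and 20 had their lowest value. A second probe set of Ccnh deviated there by -0.60 and one of Cks2 by -0.44, beside -0.57 and -0.45 for the chosen ones. Another Ccnh probe set deviated there by only -0.15 and was lowest on Cdh1-intact array 2, at -0.30. Second probe sets share the RNA and the array with the first, so they bear on the probes and not on the sample.

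Genes that work with the listed ones but lie on other chromosomes had a median near 0 on Cdh1-deficient array 2. Of 62 such partners in 10 lists, 58 were measured and none lies on chromosome 13. Their median deviation was 0.07, -0.02 and 0.05 on the Cdh1-deficient arrays and -0.15, -0.04 and 0.07 on the Cdh1-intact arrays, and 9 of the 58 had their lowest value on Cdh1-deficient array 2. No partner passed the limma test between the groups.

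The lists differed. Mnat1, which assembles Cdk7 and Ccnh into the kinase that serves in TFIIH, read 8.51, 8.56 and 9.02 on the Cdh1-deficient arrays, against 8.61, 8.73 and 8.77 on the Cdh1-intact arrays, and was not lowest on array 2 of the Cdh1-deficient group. The inner kinetochore partners of Cenph had a median deviation of 0.19 on that array, with 1 of 7 lowest there, and the Polycomb partners of Jarid2 of 0.20, with 0 of 7. Fancl, a Fanconi core ubiquitin ligase, was lowest there at 7.97 (8.28 to 8.94 on the Cdh1-intact arrays). The partners of Brd9 in the chromatin remodeller had a median of -0.11, with Smarcc1 lowest at 10.80. The complex I partners of Ndufs4 had a median of -0.11 and 0 of 6 lowest there. Partners in TNF receptor signalling had a median of -0.19 and 3 of 8 lowest, namely Tradd, Traf2 and Ripk3. The medians of the other lists there were -0.11 for TFIIH, -0.12 for end joining, -0.04 for the Fanconi core, 0.09 for the 2 measured mismatch repair genes and 0.28 for interleukin-6 receptor signalling.

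Among the 298 other genes of chromosome 13 at or above the median level, no gene passed either, and the 4 of smallest p in each direction, unnamed gene models aside, each had a limma adjusted p of 0.849. Klf6, an immediate early zinc finger factor, read 7.14, 7.91 and 7.26 on the Cdh1-deficient arrays, against 10.37, 8.68 and 8.73 on the Cdh1-intact arrays, a difference of -1.82 (SE 0.50). The histamine receptor gene Hrh2 read 5.90, 5.88 and 5.80 on the Cdh1-deficient arrays, against 6.54, 6.38 and 6.10 on the Cdh1-intact arrays, a difference of -0.48. Slc35b3, a transporter of the sulphate donor PAPS, read 8.30, 8.25 and 8.54 on the Cdh1-deficient arrays, against 9.20, 8.96 and 8.66 on the Cdh1-intact arrays, a difference of -0.58. For these 3 genes every Cdh1-deficient array lay below every Cdh1-intact array, as it did for the glutaredoxin gene Glrx. Glrx read 8.97, 9.13 and 8.97 on the Cdh1-deficient arrays, against 9.59, 9.47 and 9.25 on the Cdh1-intact arrays, a difference of -0.41. Among the higher ones, the hexokinase gene Hk3 read 6.50, 6.80 and 6.79 on the Cdh1-deficient arrays, against 6.36, 6.20 and 6.31 on the Cdh1-intact arrays, a difference of 0.41 (SE 0.12). Atxn1 read 7.05, 7.12 and 8.01 on the Cdh1-deficient arrays, against 6.26, 4.59 and 6.87 on the Cdh1-intact arrays, a difference of 1.49. The lysosomal protease gene Ctsl read 8.26, 8.59 and 9.05 on the Cdh1-deficient arrays, against 8.23, 5.06 and 7.60 on the Cdh1-intact arrays, a difference of 1.67. All 3 were lowest on Cdh1-intact array 2, as was the ceramide transfer gene Cert1. Cert1 ranged between 9.64 and 10.09 on the Cdh1-deficient arrays, against 9.60, 9.35 and 9.75 on the Cdh1-intact arrays, a difference of 0.34. It alone of the 8 had overlapping groups. The 8 were taken for their small p, which favours separate groups, so nothing is read from that count. Among the 298 genes, groups did not overlap for 6 higher and 24 lower ones. Of the 8486 genes of the other autosomes at or above the median level, they did not overlap for 876 higher and 331 lower ones. Over all genes, with no filter and in either direction, 11.7% were counted. These counts are a description and carry no test. With Cdh1-intact array 2 left out, Atxn1 differed by 0.84 and Ctsl by 0.72. Averaging all probe sets of a gene gave 0.70 for Atxn1, and leaving out probe sets with shared targets gave 0.50 for Ctsl.

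Markers of other blood cells stand beside these results. Macrophage means (4 of 4 markers) ranged from 5.78 to 6.17 on the Cdh1-deficient arrays and from 4.89 to 7.54 on the Cdh1-intact arrays, and erythroid means (3 of 4) from 4.42 to 5.65 on the Cdh1-deficient arrays and from 4.54 to 6.28 on the Cdh1-intact arrays, with Hba-a1 between 3.28 and 3.61 on all arrays. The highest macrophage mean and the highest erythroid mean were both on Cdh1-intact array 1. The part of neutrophil transcripts in the low chromosome 13 values was not tested. Cdh1-deficient array 3 and Cdh1-intact array 1 had neutrophil means of 10.07 and 10.05, and medians of the listed genes of 0.06 and -0.05.

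Cdh1-deficient array 2 was also low when other arrays were left out. Without Cdh1-intact array 2 the median deviation of the listed genes there was -0.27, against 0.01 for the other autosomes, and with the 13 genes of wide range left out it was -0.27. In the 5 fits that left out 1 of the other arrays it ranged from -0.28 to -0.19. With Cdh1-deficient array 2 itself left out, the medians of the remaining arrays were 0.08 and 0.04 on Cdh1-deficient arrays 1 and 3, and -0.10, -0.01 and 0.15 on the Cdh1-intact arrays. Cdh1-intact array 3 thus stayed the highest, beside 0.04 for the other autosomes.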

How the data were processed

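The authors deposited 1 log2 value per probe set and array, and the values were made with RMA per the submitters' processing notes. The RMA version and the genome build are not given in the sources used here. Of 45101 probe sets, 34945 carried a single symbol in a 2016 platform annotation, and control probe sets were left out. Each of 18193 genes was represented by its probe set with the highest mean. Deviations are from the gene's mean over 6 arrays. Groups were compared with limma 3.58.1 (R 4.3.3, lmFit and eBayes) on all genes, adjusted by Benjamini-Hochberg at 0.05, and the script was tested on simulated data. P-values measure the spread between 3 mice per group. The number of arrays limits the precision. Chromosome and gene order came from RefSeq (GRCm38.p6), and promoters were the first start listed. Members and lists were chosen with earlier results of these data known. By rule, values on every array are given for the 2 to 4 genes of smallest unadjusted p in each role group, for the largest difference opposite in sign to the median of the listed genes, and for the 4 other chromosome 13 genes of smallest p in each direction among those at or above the median level with a proper symbol (Cert1 by its range). Alternatives changed the probe set rule, level filter, centring, quantile normalization, array weights, trend, block and single arrays.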

Additional observations from a re-analysis of the deposited data

How the results depend on the processing

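No setting gave a listed gene an adjusted p under 0.05. Without single arrays the median difference of the listed genes ranged from -0.12 to 0.07, and under the other settings it ranged from -0.12 to -0.02. The replicate block gave 0 calls and a median of -0.05, and same-numbered arrays deviated with correlations of -0.14, 0.01 and 0.04, so the numbers were not taken to pair the mice. With the mean of a gene's probe sets the difference turned to 0.036 for Fancc and to -0.14 for Ptch1, and with array weights to 0.049 for Ipo11. Without single arrays the range was -0.77 to 2.47 for Mef2c, -0.031 to 0.42 for Depdc1b, -1.35 to 0.24 for Gadd45g, -0.32 to 0.074 for Fancc, -0.006 to 0.32 for Dimt1, -0.015 to 0.28 for Naa35, -0.25 to 0.14 for Ipo11, -2.26 to 0.047 for Pde4d and -0.015 to 0.99 for Homer1. The range also held both signs for Cdk7 (-0.19 to 0.19), Cks2 (-0.20 to 0.12), Cenph (-0.53 to 0.08) and Trip13 (-0.16 to 0.045). It did so for Ssbp2 (-0.30 to 0.24), Map3k1 (-0.12 to 0.27), Xrcc4 (-0.275 to 0.10) and Nqo2 (-0.04 to 0.26). Dek (-0.12 to 0.08), Hnrnpk (-0.045 to 0.038) and Nsun2 (-0.04 to 0.13) had such a range too. With the sign kept, it was -0.41 to -0.01 for Kif2a, 0.17 to 0.48 for Ptch1, 0.07 to 1.04 for Golm1, 0.16 to 0.69 for Parp8, 0.06 to 1.11 for Nfil3, -2.14 to -0.14 for Il6st, 0.57 to 2.05 for Cdc14b, -0.58 to -0.18 for Ccnh, -0.42 to -0.16 for Ndufs4 and 0.09 to 1.02 for Emb. The cause was not tested. The median deviation on Cdh1-deficient array 2 ranged from -0.32 (set against Cdh1-deficient arrays 1 and 3, added after seeing the data) to -0.19. Genes near the background show little of a shift, and with 3 arrays per group small differences cannot be resolved.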
